A study of Mus musculus with 6 samples.

Results

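Steroid hormones are made from cholesterol, and 10 genes of this route were followed between a mouse ovarian surface epithelial cell line and its transformed derivative. The genes were *Scarb1*, *Star*, *Cyp11a1*, *Hsd3b1*, *Cyp17a1*, *Hsd17b1*, *Cyp19a1*, *Nr5a1*, *Nr5a2* and *Nr0b1*, and their rows were taken from the table by symbol. All 10 were among the 20405 genes with a symbol in the deposited table, and each was read by 1 probe set. RNA came from early passage M0505 cells, a line of ovarian surface epithelium from FVB/N mice, and from STOSE cells, which arose from M0505 on prolonged passage without any introduced gene. Both lines grew in the same serum-containing MOSE medium with epidermal growth factor and an insulin, transferrin and selenium supplement, and neither received a further treatment. Each line gave 3 biological replicates, 1 array each. Each group was therefore a single line, the p-values measure the spread among its cultures, and passage number and transformation cannot be told apart.

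Steroid synthesis begins when a cell takes up cholesterol, in part from high density lipoprotein through the receptor encoded by *Scarb1*. *Star* encodes the steroidogenic acute regulatory protein, which carries cholesterol into mitochondria, the step that limits the rate of acute steroid production. The enzymes of *Cyp11a1*, *Hsd3b1*, *Cyp17a1*, *Hsd17b1* and *Cyp19a1* then convert it to progestins, androgens and estrogens. The nuclear receptors of *Nr5a1* (steroidogenic factor, SF-1) and *Nr5a2* (liver receptor homolog, LRH-1) activate many of these genes, and the product of *Nr0b1* (DAX-1) restrains them. In the ovary the route is best known in theca, granulosa and luteal cells, and surface epithelium is not a main site of steroid production.

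Values are log2 robust multi-array average (RMA) signals. Genes that differed by at least 2-fold with an adjusted p under 0.05 were called, and the p-values are from limma with Benjamini-Hochberg adjustment over all 20405 genes. By this rule 1548 genes (7.59%) were lower and 1000 genes (4.90%) were higher in STOSE. The median log2 fold change of all genes was 0.08, and it moved to 0.28 when the arrays were centred on their medians, a setting that gave 1177 lower and 1466 higher genes. That centring used the medians over the 20405 genes. Array medians over all 28944 probe sets, a different set, ran from 5.66 to 5.68 in M0505 and from 5.64 to 5.67 in STOSE. No array stood apart, with correlations of at least 0.997 within a line. Olfactory receptor genes have no known use in these cells, and the 95th percentile of their 1134 probe sets, 4.74, was taken as the background level.

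Of the 10 genes, *Star* and *Nr5a1* were called lower in STOSE, against 7.59% of all genes, and none was called higher, against 4.90%. *Scarb1* and *Nr5a2* were also lower past the adjusted p but by less than 2-fold, so that 4 of 10 passed in the lower direction, against 24.8% of all genes. *Cyp11a1* and *Hsd3b1* passed it in the higher direction, against 31.6% of all genes, at values below the background level in both lines. With the arrays centred *Cyp17a1* and *Nr0b1* passed too, 4 of 10 against 62.4% of all genes, and after a further quantile normalization *Cyp11a1* alone did, 1 of 10 against 31.5%. The median log2 fold change of the 10 was −0.06. For 6 of 10, the 5 enzyme genes and *Nr0b1*, the means of both lines were under the background level.

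**Figure D1:**
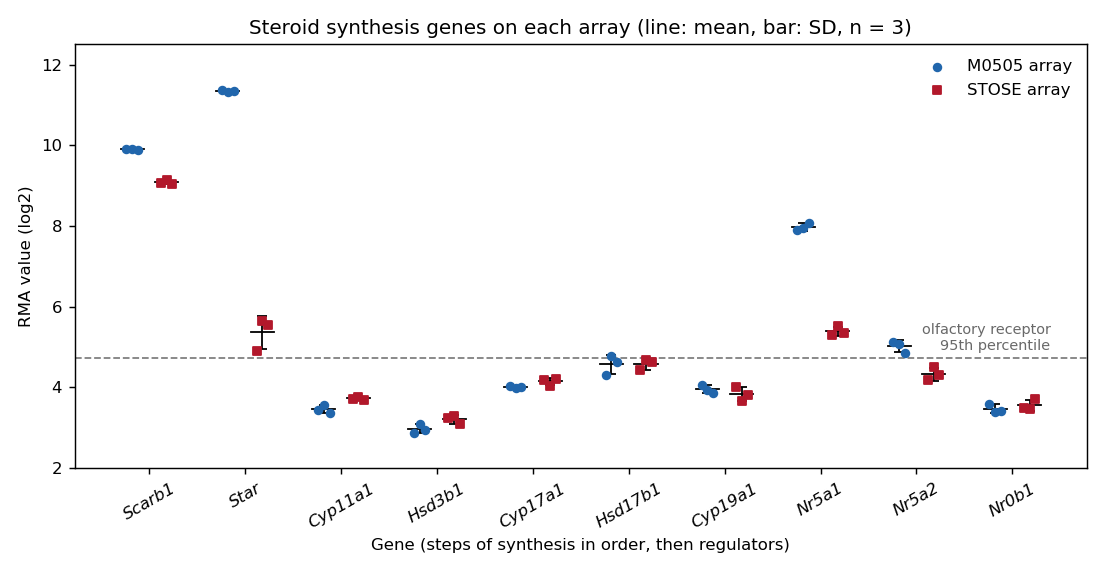
Log2 RMA value (vertical axis) of each of the 10 genes (horizontal axis) on each of the 3 M0505 and 3 STOSE arrays, with short lines at the means, bars for the SD and a dashed line at the background level of 4.74. *Star* lies above 11 on all M0505 arrays and between 4.90 and 5.65 on the STOSE arrays, whereas the steroid-forming enzymes lie near or under the line in both lines.

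*Scarb1* on chromosome 5, the receptor for high density lipoprotein, read 9.91, 9.92 and 9.88 on the M0505 arrays and 9.08, 9.13 and 9.04 on the STOSE arrays. All 3 STOSE arrays were lower than all 3 M0505 arrays. The log2 fold change was −0.82 ± 0.06 (SE, n = 3 per line; adjusted p = 4.97e-06 by limma), or 1.77 times lower in STOSE. The transcript remained well above the background level in both lines.

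*Star* on chromosome 8 had the largest difference of the 10. Its value was 11.36, 11.32 and 11.33 in M0505 and 4.90, 5.65 and 5.56 in STOSE. The M0505 arrays lay within 0.04 of each other, the STOSE arrays within 0.75, and 5.67 log2 units separated the lowest M0505 array from the highest STOSE array. Means were 11.34 ± 0.02 and 5.37 ± 0.41 (SD, n = 3 each), a log2 fold change of −5.97 ± 0.17 (SE; adjusted p = 4.88e-08 by limma). On the linear scale *Star* was 62.7-fold lower in STOSE, with a 95% interval from 47.5 to 82.8. It ranked 11 by size among the 1548 genes called lower. The difference lay between −6.11 and −5.74 when each array was left out in turn. The STOSE mean stood 0.62 above the background level but under 5.52, the 99th percentile of those olfactory probe sets.

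The M0505 means of the enzyme genes that act after *Star* were already under the background level. A fall like that of *Star* could therefore not have been seen for them. *Cyp11a1* on chromosome 9 encodes the side chain cleavage enzyme that turns cholesterol into pregnenolone. It read 3.44, 3.56 and 3.37 in M0505 and 3.72, 3.76 and 3.70 in STOSE. The STOSE arrays were higher without overlap, by 0.27 ± 0.07 (SE; adjusted p = 0.00867 by limma), and every value was under the background level. *Hsd3b1* on chromosome 3, whose enzyme makes progesterone from pregnenolone, had means of 2.97 ± 0.12 and 3.21 ± 0.10 (SD, n = 3 each). Its difference of 0.23 ± 0.08 (SE) had an adjusted p of 0.0389 by limma, with arrays of the lines that overlapped, and the adjusted p ran from 0.0218 to 0.123 with 1 array left out. Near-identical *Hsd3b* genes may share its probes, so its identity is uncertain.

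*Cyp17a1* on chromosome 19, which opens the way to androgens, had means of 4.01 ± 0.02 and 4.15 ± 0.10 (SD, n = 3 each), and its adjusted p was 0.115 by limma. *Hsd17b1* on chromosome 11, which forms estradiol from estrone, had means of 4.57 ± 0.23 and 4.58 ± 0.14, a difference of 0.01 with a 95% interval from −0.27 to 0.29. A single M0505 array of *Hsd17b1* exceeded the background level. *Cyp19a1* on chromosome 9, the aromatase gene, had means of 3.96 ± 0.09 and 3.83 ± 0.17, a difference of −0.13 with a 95% interval from −0.34 to 0.09. The intervals of these genes leave out a 2-fold difference in the probe signal, but a signal at background is a poor measure of the transcript. Neither line therefore gave a signal above background on most arrays for any enzyme from *Cyp11a1* to *Cyp19a1*.

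Among the regulators, *Nr5a1* on chromosome 2 read 7.91, 7.94 and 8.07 in M0505 and 5.30, 5.52 and 5.35 in STOSE. The lines did not overlap, and 2.39 log2 units lay between them. The log2 fold change was −2.58 ± 0.08 (SE; adjusted p = 6.41e-08 by limma), 5.99-fold lower in STOSE with a 95% interval from 5.28 to 6.80. *Nr5a1* ranked 291 among the genes called lower, and leaving out an array moved the difference only between −2.65 and −2.53. As for *Star*, its STOSE mean (5.39) stood only 0.65 above the background level and under 5.52, the 99th percentile of the olfactory probe sets.

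*Nr5a2* on chromosome 1 read 5.13, 5.08 and 4.85 in M0505 and 4.18, 4.50 and 4.30 in STOSE. All M0505 arrays were above the background level and all STOSE arrays were under it. Its log2 fold change was −0.70 ± 0.10 (SE; adjusted p = 0.000506 by limma), 1.62 times lower, and against the background level M0505 was at least 1.22-fold higher. *Nr0b1* on chromosome X, the repressor, had means of 3.47 ± 0.11 and 3.56 ± 0.14 (SD, n = 3 each), both under the background level, with an adjusted p of 0.421 by limma. Counted by overlap of the arrays, *Scarb1*, *Star*, *Nr5a1* and *Nr5a2* were lower without overlap, 4 of 10 against 27.0% of all genes, and *Cyp11a1* and *Cyp17a1* were higher without overlap, 2 of 10 against 37.6%. In whole cultures, fewer cells with a transcript and less transcript per cell cannot be told apart.

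**Figure D2:**
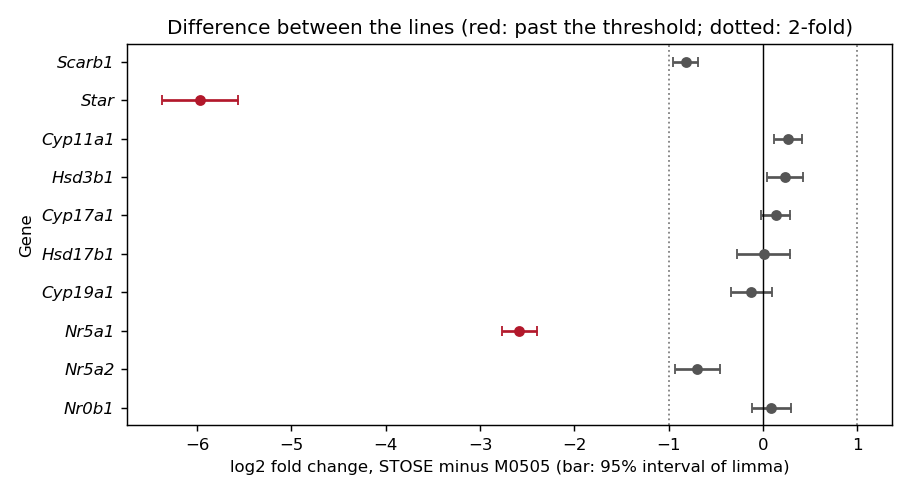
Log2 fold change of STOSE against M0505 (horizontal axis) for each of the 10 genes (vertical axis), with 95% intervals from limma, 3 arrays per line. *Star* at −5.97 and *Nr5a1* at −2.58 lie past the dotted 2-fold lines, *Scarb1* and *Nr5a2* lie below 0 within them, and the other genes lie between −0.13 and 0.27.

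Promoter windows from 250 bases before to 50 after an annotated start were read from RefSeq (assembly GRCm38.p6), which held 9 windows for 5 of the 10 genes. No window was held for *Star*, *Nr5a1*, *Scarb1*, *Cyp17a1* or *Hsd17b1*, so the motif counts do not cover the called genes. Some genes had several windows. The 250 bases before the start are shown for *Nr5a2*, the lower gene that had a window, and for *Cyp11a1*, the enzyme gene next in the route after *Star*. Capitals mark AGGTCA, the core site that nuclear receptors of several families bind, and AGATAA or TGATAA, sites of GATA factors, on either strand.
*Nr5a2* chr1:136960449-136960698, minus strand: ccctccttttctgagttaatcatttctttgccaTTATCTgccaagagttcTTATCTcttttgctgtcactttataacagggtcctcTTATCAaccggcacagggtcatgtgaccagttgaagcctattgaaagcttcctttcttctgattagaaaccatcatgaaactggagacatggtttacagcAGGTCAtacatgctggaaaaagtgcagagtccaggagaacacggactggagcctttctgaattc
*Cyp11a1* chr9:58014702-58014951, plus strand: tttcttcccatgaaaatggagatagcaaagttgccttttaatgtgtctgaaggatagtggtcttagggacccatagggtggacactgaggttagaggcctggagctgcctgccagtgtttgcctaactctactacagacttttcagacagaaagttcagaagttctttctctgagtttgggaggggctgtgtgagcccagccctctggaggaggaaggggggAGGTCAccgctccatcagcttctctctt
RefSeq held 2 windows for each of these genes, and the one with AGGTCA is shown, since the other window of each had none. In the *Nr5a2* window AGGTCA began at position −64 from the start, and AGATAA on the opposite strand at −217 and −200. In the window shown for *Cyp11a1* AGGTCA began at −28. AGGTCA was in 4 of the 9 windows and in 16.3% of all 32851 windows of the same length. The longer NR5A site CAAGGNCA, which holds all of AGGTCA where N is T, was in 1 of 9, a *Cyp19a1* window, and in 6.71% of all windows. AGATAA was in 2 of 9 and in 11.2% of all, and TGATAA in 2 of 9 and 9.05%. The cAMP response element TGACGTCA was in 0 of 9 and in 1.79% of all, and the TATA box TATAAA in 4 of 9 and 13.6%. These are matches of letters on both strands, and binding was not measured.

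The genes that supply, assist or control this route were grouped in 7 lists with 101 genes. Of these, 17 were called lower (16.8%, against 7.59% of all genes) and 4 higher (3.96%, against 4.90%), and their median log2 fold change was −0.12. All members of the lists were on the array. The calls of each list below stand beside the same shares of all genes, 7.59% lower and 4.90% higher. The members were chosen with earlier results of these data known, and the counts are a description.

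Of 15 genes of cholesterol uptake, storage and release, 4 were called lower and 1 higher, against 7.59% and 4.90% of all genes. *Vldlr*, a lipoprotein receptor, had means of 6.90 and 4.64 in M0505 and STOSE, a difference of −2.27 ± 0.08 (SE) with 1 of 3 STOSE arrays over the background level, so that M0505 was at least 4.46-fold higher. *Npc1*, which moves cholesterol out of lysosomes, fell by 1.57 ± 0.06, and *Soat1*, which esterifies cholesterol for storage, fell by 1.34 ± 0.06. *Nceh1*, a cholesteryl ester hydrolase, fell by 1.03 ± 0.07, a call lost under centring (−0.83) and without STOSE replicate 1 (−0.97). The cholesterol exporter *Abca1* rose from 7.26 to 9.45, by 2.18 ± 0.20 (adjusted p = 2.94e-05 by limma).

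Delivery of cholesterol to mitochondria gave 1 lower call in 10 genes, against 7.59% of all genes. *Stard5*, a cytosolic sterol carrier related to *Star*, fell by 1.82 ± 0.06, from 11.35 to 9.53 (adjusted p = 1.01e-07 by limma). *Tspo*, *Stard3* and *Stard4* had differences of −0.13, −0.14 and −0.15, none past the adjusted p, and all 3 were on the higher side of 0 when the arrays were centred. Of 7 electron partners of the steroid P450 enzymes, *Fdxr*, ferredoxin reductase, fell by 1.18 ± 0.07, a call lost under centring (−0.98). Its partner *Fdx1* was lower by less than 2-fold (−0.56 ± 0.13; adjusted p = 0.00574 by limma), and *Por*, the reductase of microsomal P450 enzymes, had a difference of 0.27 ± 0.07.

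Among 14 further steroid-forming enzymes, 8 had means under the background level in both lines. The 3 called genes were of the steroid 5α-reductase family, in which the enzymes of *Srd5a1* and *Srd5a2* act on hormones already made. *Srd5a1* rose from 6.49 to 8.30, by 1.81 ± 0.10. *Srd5a2* fell by 1.67 ± 0.24, to a STOSE mean of 4.67 that was under the background level, so that M0505 was at least 2.97-fold higher. *Srd5a3* fell by 1.06 ± 0.06, but its second probe set differed by 0.08 (adjusted p = 0.340 by limma), so its direction rests on 1 of the probe sets, and its call was lost under centring (−0.86).

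The list with the most calls was that of enzymes that inactivate or conjugate steroids, with 6 of 15 genes lower and 0 higher. The shares of all genes were 7.59% and 4.90%. Past the adjusted p alone, 8 were lower and 2 higher, against 24.8% and 31.6% of all genes. The 2 higher genes included *Akr1c18*, one of the brightest of the list, which rose from 10.14 to 10.76 (0.62 ± 0.06). Under centring this list had 4 genes called lower, and the list of cholesterol uptake, storage and release had 3 lower and 1 higher. In that setting 5.77% of all genes were called lower and 7.18% higher. *Akr1c14*, a 3α-hydroxysteroid dehydrogenase, read 9.49, 9.65 and 9.58 in M0505 and 6.51, 6.83 and 6.60 in STOSE. Its log2 fold change was −2.93 ± 0.09 (SE; adjusted p = 7.19e-08 by limma), 7.61-fold lower, with no overlap. *Hsd17b11*, a 17β-hydroxysteroid dehydrogenase of lipid droplets, fell by 2.25 ± 0.17. *Hsd11b2*, which inactivates glucocorticoids, fell by 1.76 ± 0.22. *Sts*, the sulfatase that frees steroids from sulfate and so acts in the opposite sense to the conjugating enzymes, fell by 1.68 ± 0.09. The other 2 calls were *Cyp7b1* and *Hsd17b8*, which the table names *H2-Ke6*, and both were lost under centring (−0.94 and −0.89). *Cyp7b1* had means of 4.797 and 3.66, just over the background level in M0505 and under it in STOSE, so that M0505 was at least 1.04-fold higher, and its call was also lost without STOSE replicate 2 (−0.9996).

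Of 23 transcription factors that regulate steroid genes, 2 were called lower and 0 higher, against 7.59% and 4.90% of all genes. *Gata4*, which acts with SF-1 on many promoters of the route, read 10.67, 10.84 and 10.83 in M0505 and 9.52, 9.37 and 9.30 in STOSE. It was 2.60-fold lower (log2 fold change −1.38 ± 0.08; adjusted p = 2.04e-06 by limma) and did not overlap. *Nr0b2*, a corepressor, had a difference of −1.03 ± 0.12 from 5.51 to 4.48, under the background level in STOSE, so that M0505 was at least 1.70-fold higher, and its call was lost without M0505 replicate 2 (−0.90) or STOSE replicate 3 (−0.98) and under centring (−0.83). *Gata6* (−0.30), *Wt1* (−0.63) and *Foxl2* (−0.37) were lower past the adjusted p by less than 2-fold. *Nr4a1* differed by 0.12 (adjusted p = 0.617 by limma).

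Among 17 trophic hormone receptors and cAMP signalling genes, 2 were called higher and 1 lower, against 4.90% and 7.59% of all genes. *Pde8a*, a phosphodiesterase that degrades cAMP, read 5.80, 5.85 and 5.75 in M0505 and 8.37, 8.76 and 8.66 in STOSE. It was 6.93-fold higher (log2 fold change 2.79 ± 0.10; adjusted p = 1.44e-07 by limma), the largest rise in the 7 lists. The adenylyl cyclase gene *Adcy7* rose by 1.23 ± 0.07. *Adcy9* fell by 1.02 ± 0.09, a call lost without STOSE replicate 3 (−0.93), after a further quantile normalization (−0.86) and under centring (−0.82). The gonadotropin receptor genes were at background in both lines, *Fshr* with means of 4.31 and 4.42 and *Lhcgr* with 2.98 and 3.14.

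**Figure D3:**
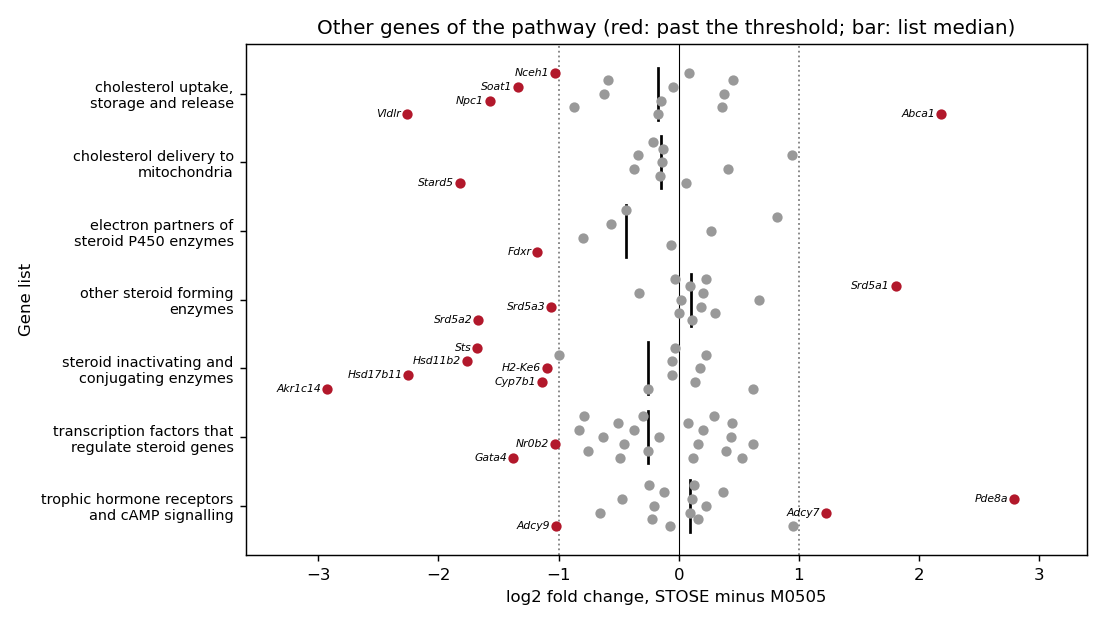
Log2 fold change of STOSE against M0505 (horizontal axis) for the 101 genes of the 7 lists (vertical axis), 1 point per gene, with a bar at each list's median and dotted lines at 2-fold. The 17 genes called lower and the 4 called higher are red and named, and 6 of the lower ones are in the list of inactivating and conjugating enzymes.

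Marker genes of the cell types that such cultures could hold were read beside these results. Among all genes 7.59% were called lower and 4.90% higher. Past the adjusted p alone these shares were 24.8% and 31.6%. Of 13 surface epithelium markers, none was under the background level in both lines, and *Upk3b*, *Upk1b*, *Msln* and *Lrrn4* had means over 10 in both. Of these markers 5 were called lower in STOSE, among them *Aldh1a2* (11.37 to 3.95), *Krt19* (11.17 to 5.61) and *Krt8* (11.37 to 6.82), and their summed level, the log2 of the sum of the linear values, ranged from 15.02 to 15.10 in M0505 and from 14.14 to 14.27 in STOSE. Of 11 granulosa cell markers 1 was called lower, *Inha* (9.61 to 5.68), and the summed level ranged from 10.57 to 10.73 in M0505 and from 9.55 to 9.58 in STOSE. Past the adjusted p alone 4 of the 11 were lower and 2 higher, *Inhba* (7.47 to 7.73) and *Amh* (4.68 to 4.95). The median log2 fold change of the 11 was −0.08, and 5 were under the background level in both lines. Of 8 theca and Leydig cell markers on the array 6 were under the background level in both lines, the call was *Nr5a1* itself, and the summed level ranged from 9.00 to 9.08 in M0505 and from 8.20 to 8.35 in STOSE.

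Of 7 luteal markers *Sfrp4* and *Pgr* were called lower, but the summed level was higher in STOSE (10.82 to 10.93, against 10.46 to 10.53). Most of that sum came from the brightest of them, *Akr1c18* (10.14 to 10.76). Past the adjusted p alone 4 of the 7 were lower and 1 higher, and their median log2 fold change was −0.87. Of 7 adrenal cortex markers *Mrap* was called lower, and the sums ranged from 7.83 to 7.87 in M0505 and from 7.12 to 7.29 in STOSE. Past the adjusted p alone 2 of these 7 were lower and 1 higher, and 4 were under the background level in both lines. Of 8 leukocyte markers *Cd68* was called lower, with sums from 9.73 to 10.11 and from 7.99 to 8.20. In both lines 6 of the 8 were under the background level, among them *Ptprc*, the gene of the pan-leukocyte antigen CD45 (3.79 and 3.81). *Cd3e* (5.09 and 5.31) was over it on all arrays. Of 6 endothelial markers *Kdr* was called lower, with sums from 9.77 to 9.90 and from 7.29 to 7.42, while *Pecam1* (4.69 and 4.33) and *Emcn* (2.99 and 3.05) were at background. *Cdh5* (4.81 and 5.01) and *Cldn5* (5.63 and 5.71) were over it on all arrays, and *Tek* (4.76 and 4.78) on some. The part of other cell types in the fall of *Star* and *Nr5a1* was not tested.

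*Star* lies on chromosome 8, and its neighbours were read from the order of RefSeq genes. The 2 nearest genes on the array did not share its fall. *Lsm1*, of the complex that degrades messenger RNA, had a difference of −0.05 ± 0.08 (SE; adjusted p = 0.647 by limma), which was above 0 under both other scalings. *Ash2l*, of the histone H3 methyltransferase complexes, had a difference of 0.05 ± 0.06 (adjusted p = 0.444). Within 1 Mb, 4 of 21 genes (19.0%) were called lower and 0 higher, with a median log2 fold change of −0.30. These were *Tacc1* (−3.10 ± 0.07), *Rnf170* (−1.55 ± 0.08), *Hgsnat* (−1.27 ± 0.09) and 4930444A02Rik (−1.09 ± 0.09), which RefSeq names *Pomk* and whose call was lost under both other scalings (−0.97 and −0.89). Across the other 961 genes of chromosome 8, 75 (7.80%) were called lower and 63 higher, with a median of 0.12, against 7.59% and 0.08 over all genes. The study's karyotypes were aneuploid in both lines, and the copy number of the locus was not tested here.

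**Figure D4:**
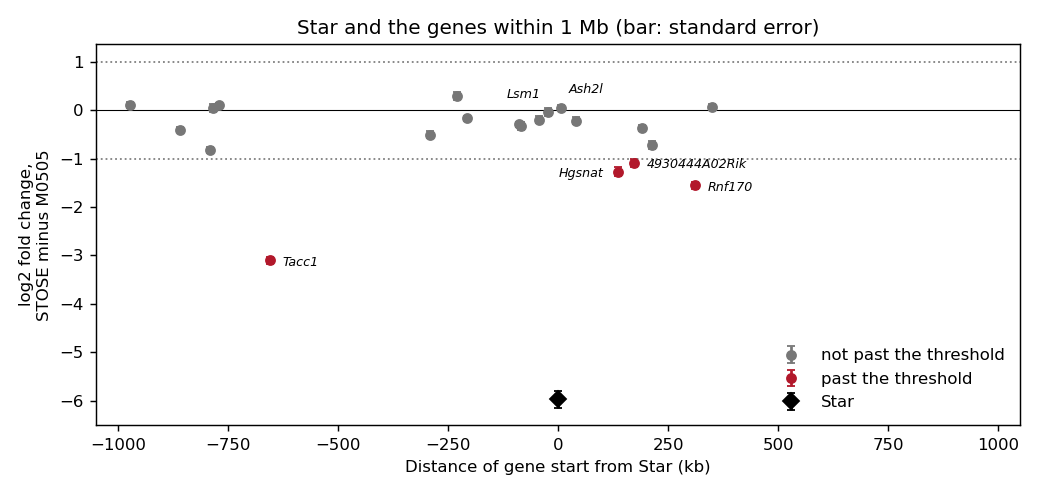
Log2 fold change of STOSE against M0505 (vertical axis; bars are SE) for *Star* and the 21 genes within 1 Mb, by distance of the gene start from that of *Star* in kb (horizontal axis). *Star* at −5.97 stands alone among near neighbours close to 0, and the 4 called genes lie between −3.10 and −1.09.

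The genes most like *Star* over the 6 arrays were ranked by the root mean square difference of their log2 values, each gene centred on its own mean. Among the 5 nearest were *Cryl1* (0.157), *Krt19* (0.240), *Capn6* (0.258) and *Cybrd1* (0.298), with log2 fold changes of −5.81, −5.56, −5.68 and −6.37. *Nr5a1* ranked 285 with a distance of 1.71, *Scarb1* ranked 1972 and *Nr5a2* ranked 2337. The ranking is over 6 arrays of 2 lines, so it mostly orders genes by the size of the difference between the lines.

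**Figure D5:**
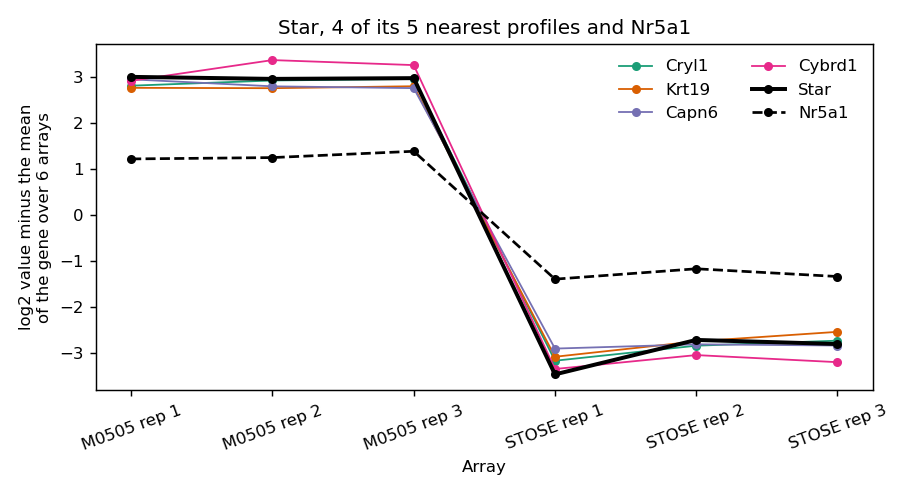
Log2 value minus the gene's mean over the 6 arrays (vertical axis) on each array (horizontal axis) for *Star*, 4 of its 5 nearest genes and *Nr5a1*. *Star* and the 4 genes run close together on all arrays, and *Nr5a1* has the same shape with a smaller step of −2.58.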

How the data were processed

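Total RNA of 3 M0505 and 3 STOSE cultures was read on Affymetrix GeneChip Mouse Gene ST arrays. The authors deposited 1 table of log2 values, summarized in Affymetrix Expression Console by RMA, which corrects background, quantile normalizes and combines the probes of a probe set. A global loss of RNA would not be seen after that normalization. The RMA version, annotation release and genome build are not given in the sources used here. The table's line means and fold changes were not used. All 6 columns of values were matched to samples by name, and 0 were left over.

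Of 28944 probe sets, 5414 had no symbol and were left out. The other 23530 stood for 20405 genes, and the probe set of highest mean was kept for the 1613 genes with several. Lines were compared with lmFit and eBayes of limma 3.58.1 (R 4.3.3), no covariate, with Benjamini-Hochberg adjustment, and calls were made at an adjusted p of 0.05 and 2-fold. On simulated data of the same comparison with 20405 genes, 100 genes changed by 1.5 and 100 by 3.0 log2 units were all recovered with 0 false calls. Both sizes lie past the 2-fold threshold, and the noise was drawn independently for each gene and array. Calls near 2-fold and effects shared by cultures were therefore not tested. With 3 arrays against 3, the smallest two-sided p of an exact permutation test is 0.1, so none was run. An array has no read depth, and the number of arrays limits precision. Chromosomes came from RefSeq GRCm38.p6 by symbol, which placed 19899 genes (97.5%).

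The 10 genes and the gene lists were chosen with earlier results of these data known. Named genes were the 10, up to 4 of the largest calls per list, a short set of pathway genes whatever their result, called genes within 1 Mb of *Star* with its 2 nearest neighbours, and the 5 genes most like *Star*. Results of a few of these named genes are not reported here. Others, namely *Nceh1*, *Cyp7b1*, *H2-Ke6* and markers that were not called, were named after their values were seen. The olfactory background level, bounds taken against it and the AGGTCA motif were also chosen after the data were seen. Alternatives were another scaling, filters on dim genes, the mean of the probe sets, other tests and thresholds, a replicate block and leaving out each array.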

Additional observations from a re-analysis of the deposited data

How the results depend on the processing

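The calls of *Star* and *Nr5a1* and their direction were the same under all alternatives that gave them a value. Of all 20405 genes, the shares called higher and lower were 2.47% and 4.87% by limma's treat test against 2-fold, 31.6% and 24.8% with no fold threshold, and 0.912% and 2.49% at 4-fold. With no fold threshold *Scarb1* (−0.82), *Nr5a2* (−0.70), *Cyp11a1* (0.27) and *Hsd3b1* (0.23) were past the adjusted p. *Hsd17b1* turned to −0.0676 after a further quantile normalization and ranged from −0.12 to 0.11 with 1 array left out, and *Nr4a1* turned to −0.0763 without M0505 replicate 3, within a range of −0.0763 to 0.357. With the arrays centred on their medians *Cyp19a1* turned to 0.0749, *Tspo* to 0.0702, *Stard3* to 0.0586, *Stard4* to 0.0477 and *Lsm1* to 0.15, and *Lsm1* was 0.0887 after a further quantile normalization and ranged from −0.108 to 0.0173 with 1 array left out. In the 7 lists, higher and lower calls were 7 and 10 when centred, 25 and 42 with no fold threshold and 2 and 3 at 4-fold, and treat gave 8 lower. Calls lost by limma's treat test included *Hsd11b2* (adjusted p = 0.056), *Srd5a2* (0.136), *Adcy7* (0.0645) and, near *Star*, *Hgsnat* (0.103). Leaving out 1 array gave 4 to 6 higher and 15 to 18 lower list genes. The median within 1 Mb of *Star* was −0.0965 when centred, −0.37 without the dimmest 50% of genes and −0.12 within 2 Mb, and that of chromosome 8 was 0.32 when centred and 0.15 without the dimmest 50%.

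The labels do not say whether equal replicate numbers mark paired cultures. Same-numbered arrays had correlations of their deviations of 0.256, 0.042 and 0.249, and differently numbered arrays ran from −0.293 to 0.119. A shared structure by number was therefore not excluded. With the number as a replicate block, 1001 genes were higher and 1548 lower, the lists gave 4 and 17, and none of the 10 genes changed its call. The filter on the dimmest 25% left out *Cyp11a1*, *Cyp17a1*, *Cyp19a1*, *Hsd3b1* and *Nr0b1*, and that on 50% also *Hsd17b1* and *Nr5a2*, so these have no value there. At the 90th and 99th percentile of the olfactory probe sets, 5 and 7 of the 10 genes had both means under the level. Signals near background limit what can be said of the enzymes.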
